A study of Mus musculus with 6 samples.

Results

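This account covers 45 genes of mouse that encode actin-binding and focal adhesion proteins. They were taken by name from a list that was chosen with earlier results of these data known. Each was found once, through its Ensembl identifier in GENCODE M21 (GRCm38), among the 49328 genes of the table. The libraries were labelled as coming from mesenchymal stromal cells (MSCs). These cells were obtained from the bone marrow of CB6F1 mice with acute graft-versus-host disease (aGVHD) and kept in culture. A group of 3 libraries came from cells given a compound labelled R at 0.5 um, the unit as labelled, and a group of 3 from cells given its solvent, DMSO (vehicle). All 6 libraries thus share the disease, the strain and the same medium (DMEM rich in glucose, serum, antibiotics), and no cells of healthy mice are part of the comparison. The identity of R, the length of treatment and the origin of the libraries of a group (separate animals, separate cultures or neither) could not be read from the labels, so p-values measure only the spread between these libraries, which may be technical.

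Adherent cells pull on their surroundings through stress fibres, bundles of actin filaments and myosin II that end at focal adhesions. There integrins bind matrix outside the cell, and talin, kindlin, vinculin, parvin, tensin and paxillin connect them with actin inside it. Alpha-actinin and filamin crosslink the filaments, tropomyosins lie along them and set which myosins and severing proteins gain access, and LIM-domain proteins such as zyxin gather where filaments are under tension. Stromal cells on stiff culture plastic are known for many stress fibres, and several genes of this machinery are known targets of the transcription factor SRF, which binds the CArG box, and of TEAD factors, which bind GGAATG.

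The promoters of these genes show where such motifs lie. RefSeq windows of GRCm38.p6 from 250 bases before to 50 bases after a transcription start were found for 40 of the 45 genes, 56 windows in all. A CArG box (CC, then 6 letters that are each A or T, then GG; both strands) was present for 4 of the 40, Fhl2, Cnn2, Vcl and Fermt2, against 1.81% of all 27025 genes with a window and 1.63% of all 32851 windows. The stretches around these boxes are printed 5′ to 3′ on the strand of the gene, upstream bases only, with the box in capitals, and Fhl2 has a box at each of 2 start sites.
Fhl2, chr1:43196818-43196887, minus strand: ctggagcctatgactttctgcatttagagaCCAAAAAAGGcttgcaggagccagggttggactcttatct
Fhl2, chr1:43163962-43164022, minus strand: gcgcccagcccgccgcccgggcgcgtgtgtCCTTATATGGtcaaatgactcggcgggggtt
Cnn2, chr10:79988514-79988583, plus strand: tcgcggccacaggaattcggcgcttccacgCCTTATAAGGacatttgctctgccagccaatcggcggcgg
Fermt2, chr14:45530230-45530299, minus strand: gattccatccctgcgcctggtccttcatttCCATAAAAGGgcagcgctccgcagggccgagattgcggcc
Vcl, chr14:20929148-20929210, plus strand: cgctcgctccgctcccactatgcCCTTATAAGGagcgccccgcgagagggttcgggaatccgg
The motif GGAATG, on either strand, was present for 10 of the 40 genes, against 16.6% of all genes with a window and 14.7% of all windows. It was present for 3 of the 14 genes with a window that were higher in R, and these are printed with the motif, or its reverse complement CATTCC, in capitals.
Tpm1, chr9:67049234-67049299, minus strand: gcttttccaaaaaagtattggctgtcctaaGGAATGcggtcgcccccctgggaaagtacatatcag
Cald1, chr6:34598321-34598386, plus strand: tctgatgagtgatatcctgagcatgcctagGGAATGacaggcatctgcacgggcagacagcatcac
Actn4, chr7:28962513-28962578, minus strand: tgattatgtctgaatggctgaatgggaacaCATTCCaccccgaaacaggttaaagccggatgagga
Of the 4 genes with a CArG box, Cnn2 and Fermt2 rose in R, while Fhl2 and Vcl did not pass the test (log2 changes 1.26 and 0.09). These matches describe letters in a window, and binding was not measured.

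FPKM, the deposited unit, counts fragments scaled to gene length and library size. For the test with limma it was put on the scale log2(FPKM + 1); each log2 change gives the R mean less the vehicle mean on that scale, which understates changes of low genes. Genes with at least 1 FPKM in at least 3 of the 6 libraries were tested, 11862 in all and 43 of the 45 listed; Ilk and Lmo7 were below this level. At an adjusted p of 0.05, 16 of the 43 rose in R and 0 fell. Of all tested genes 2.39% were called higher and 4.43% lower. The listed genes had a median log2 change of 0.44, against -0.0037 over all tested genes, and 34 of the 43 changes were positive. The 3 R libraries lay above the 3 vehicle libraries for 24 of the 43 and below them for 1, Tpm3; these shares were 13.9% and 15.5% over all tested genes. At an unadjusted p under 0.05 in limma, 25 were higher and 1 was lower, beside 11.4% and 12.6% of all tested genes.

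The rises were moderate. The log2 changes of the 16 genes ran from 0.44 for Actn4 to 1.54 for Pdlim1, and among them were alpha-actinins, calponins, caldesmon, a tropomyosin, PDZ-LIM proteins, kindlin-2, alpha-parvin, tensin 1, Src and its substrate Bcar1, cortactin, drebrin and caveolin 1. The plot of FPKM by library shows all 45 genes. Of the 16 calls, 14 were lost without at least 1 of the 6 libraries. With R replicate 1 left out 6 of the 43 were called higher, with R replicate 2 left out 3 and with R replicate 3 left out 5, beside 1%, 0.725% and 1.18% of all tested genes. With vehicle replicate 1 left out 4 were called higher, with vehicle replicate 2 left out 5 and with vehicle replicate 3 left out 13, beside 0.531%, 0.953% and 2.97% of all tested genes. Actn1 and Cav1 were called in each of these 6 fits, Fermt2 in 5 and Cald1 in 4, and Actn4, Cnn2 and Tns1 in 0.

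**Figure D1:**
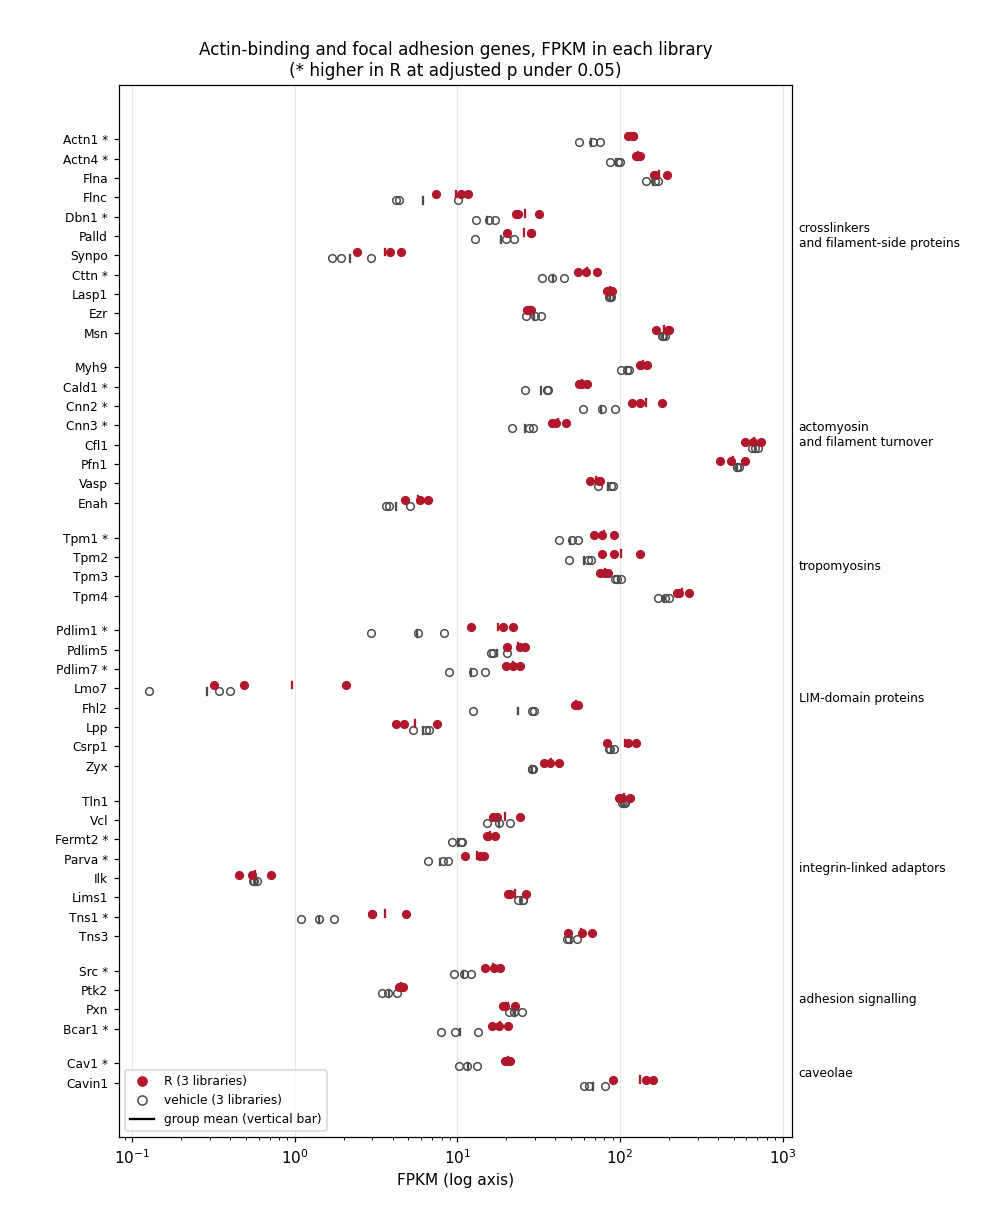
FPKM of the 45 genes on a log axis, 1 point per library (filled, R; open, vehicle; n = 3 each), with a bar at each group mean and a star at each of the 16 genes higher in R. The starred genes have all 3 R points to the right of the vehicle points, while Cfl1, Pfn1, Msn, Tln1 and Lasp1 overlap.

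The libraries of a group differed along the same lines. Vehicle replicate 1 had the lowest vehicle value for 25 of the 43 tested genes and for 14 of the 16 that rose, and R replicate 2 had the highest R value for 11 of the 16. Over the 16 genes the median level, taken on the log scale, was 12.2, 14.0 and 15.9 FPKM in vehicle replicates 1, 2 and 3 and 22.7, 27.8 and 21.7 FPKM in R replicates 1, 2 and 3, which describes genes that were called for this very difference. Other cell types were looked at through marker lists. The 18 macrophage markers were all present in every library, with a summed level of 17950.3 to 23890.2 FPKM with vehicle and 14626 to 18432 FPKM with R, and 17 of the 18 changes were negative, 3 of them past the threshold (Itgam, Fcgr1 and Mpeg1). Over all tested genes 4.43% were called lower. At an unadjusted p under 0.05 in limma 12 of the 18 were lower and 0 higher, beside 12.6% and 11.4% of all tested genes. The 16 stromal markers summed to 661 to 1332 FPKM with vehicle and 1330.0 to 1988 FPKM with R, and 0 of the 11 tested passed, with 6 changes positive and 5 negative. At an unadjusted p under 0.05 in limma 4 were higher and 0 lower, beside 11.4% and 12.6% of all tested genes. Most of the sum came from Fn1, Col1a1 and Col1a2 (log2 changes 0.70, 1.19 and 0.62). Pdgfrb, Twist1 and Prrx1 also had positive log2 changes, of 0.65, 0.64 and 0.53. Cxcl12, Pdgfra, Eng, Vcam1 and Col3a1 had log2 changes of -1.31, -0.60, -0.46, -0.34 and -0.22. Thy1 and Dcn, too low to be tested, had all R libraries below vehicle. Of these markers Dcn, Lum, Lepr and Nt5e were under 1 FPKM in every library, although they are used to define stromal cells. In every library the macrophage sum was far above the stromal sum, so the values cannot be read as those of stromal cells alone. The lists hold different genes, so their sums give no share of cells. Vehicle replicate 1 had the lowest stromal and the highest macrophage sum of the 6 libraries. Within R the order differed. R replicate 2, highest in R for 11 of the 16 genes, had the lowest stromal sum of R (1330.0 FPKM). R replicate 3, lowest in R for 9 of the 16, had the highest (1988 FPKM). The 10 smooth muscle and pericyte markers, mostly Acta2, summed to 139 to 428 FPKM with vehicle and 429.5 to 763 FPKM with R. Of the 7 tested, 4 were higher and 1 lower at an unadjusted p under 0.05 in limma, beside 11.4% and 12.6% of all tested genes. Tagln and Cspg4 were higher past the threshold, beside 2.39% of all tested genes. Each of these 2 was called in 1 of the 6 fits with a library left out. Tagln had only an estimated 17 to 113 reads, and 67.9% of its exon bases overlap exons of other genes, so its value is uncertain. Notch3, of the same list, had all R libraries below vehicle without passing (log2 change -0.58, adjusted p = 0.093). In the endothelial list 8 of the 10 markers were under 1 FPKM in every library. The 10 summed to 2.55 to 3.41 FPKM with vehicle and 4.35 to 8.75 FPKM with R. Cdh5, the only 1 tested, had all R libraries above vehicle without passing (log2 change 0.82, adjusted p = 0.13). Kdr had a lower mean with R (0.41 FPKM against 0.60 FPKM with vehicle). No marker was at 0 in all 6 libraries. In bulk RNA, fewer cells of a type and less RNA per cell cannot be told apart, and the part of these shifts in the results on the actin and adhesion genes was not tested.

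The crosslinkers and other filament-side proteins divided between genes that rose and genes that did not pass. Actn1, the alpha-actinin that ties filaments into stress fibres and to adhesions, had 55.9, 75.0 and 67.9 FPKM in vehicle replicates 1, 2 and 3, and 119.9, 121 and 112 FPKM in R replicates 1, 2 and 3. Every R library was above every vehicle library (log2 change 0.83, SE 0.12, adjusted p = 0.010). Actn4, its near relative that is also found at the leading edge, had 86.7, 99.8 and 97.1 FPKM with vehicle against 125, 128 and 133 FPKM with R (log2 change 0.44, SE 0.09, adjusted p = 0.032). The groups again did not overlap, but the rise was smaller, and its call ended whichever library was left out (adjusted p up to 0.13) and with quantile normalization (adjusted p = 0.052). Both genes are well above most of the others in level.

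Cortactin (Cttn), which binds branched actin and is a substrate of Src, had 33.2, 38.3 and 45.1 FPKM with vehicle against 55.2, 72.4 and 61.7 FPKM with R (log2 change 0.69, SE 0.14, adjusted p = 0.036). Drebrin (Dbn1), which lies along filaments and stabilizes them, had 13.0, 15.7 and 17.0 FPKM with vehicle against 23.5, 31.6 and 23.0 FPKM with R (log2 change 0.73, SE 0.15, adjusted p = 0.035). In both the groups were apart, and R replicate 2 was the highest library. The remaining 7 of these 11 genes did not pass. They were the filamins Flna and Flnc, palladin (Palld), synaptopodin (Synpo), Lasp1, and the membrane linkers ezrin (Ezr) and moesin (Msn), with log2 changes from -0.09 for Ezr to 0.67 for Flnc. Flna, a large crosslinker and one of the most abundant genes of the list, had 160.3 ± 13.3 FPKM with vehicle against 173 ± 17.8 FPKM with R (SD, n = 3), a log2 change of 0.11 with a 95% interval of -0.15 to 0.37. Flnc had 4.18, 4.35 and 10.01 FPKM with vehicle against 10.6, 7.40 and 11.5 FPKM with R; vehicle replicate 3 overlapped R, and without it Flnc was called higher (adjusted p = 0.026). Moesin is also abundant in leukocytes, and its change was 0.02 with a 95% interval of -0.21 to 0.25.

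**Figure D2:**
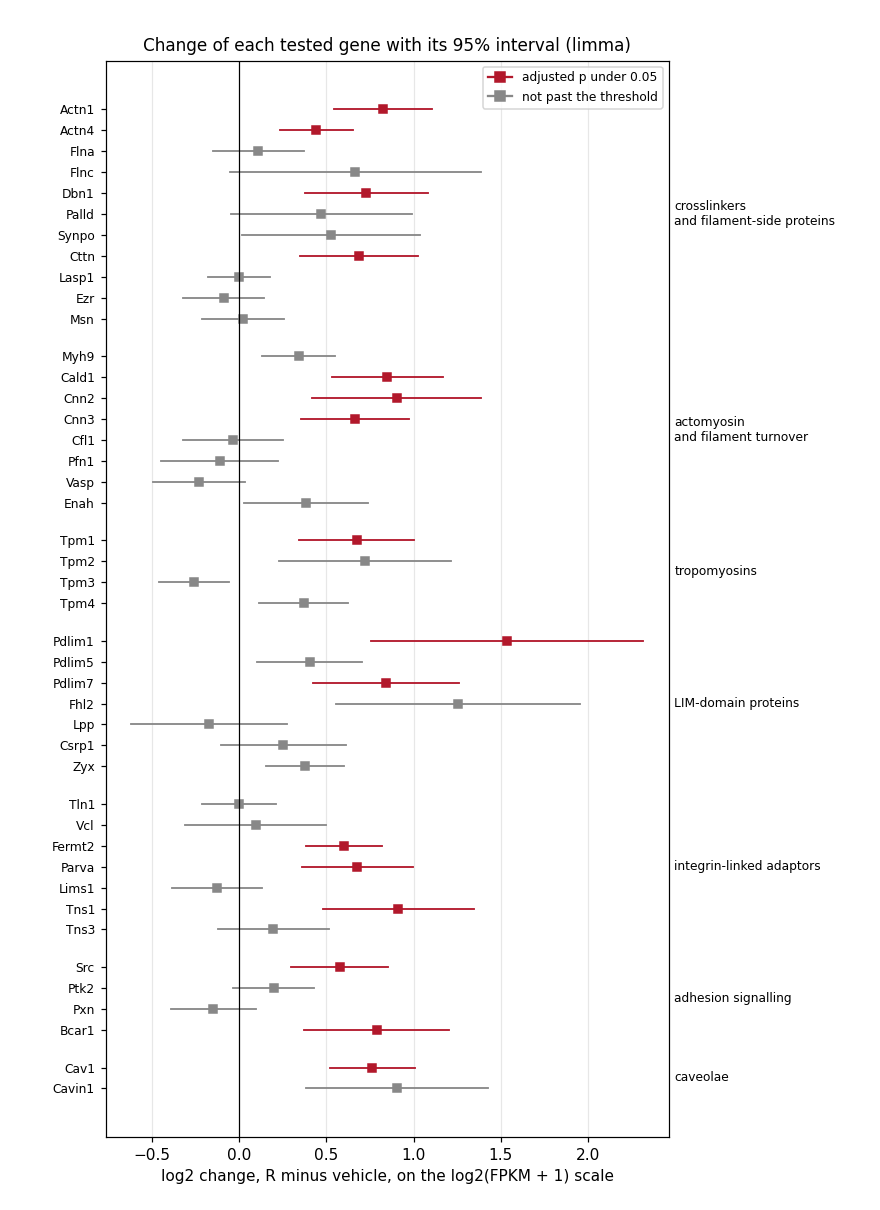
Log2 change, R minus vehicle, of the 43 tested genes with 95% intervals from limma, grouped by role; red marks an adjusted p under 0.05. The 16 red intervals lie above 0, and the 0 lower calls leave no red interval below it.

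Among the genes that regulate actomyosin, caldesmon (Cald1) and the calponins, which bind filaments and restrain myosin, were the ones that rose. Cald1 had 26.0, 36.0 and 35.4 FPKM in vehicle replicates 1, 2 and 3, and 55.8, 58.1 and 62.6 FPKM in R replicates 1, 2 and 3. Its R libraries were close together and all above vehicle (log2 change 0.85, SE 0.14, adjusted p = 0.015). Cnn2 had 59.6, 92.9 and 77.6 FPKM with vehicle against 118, 181 and 133 FPKM with R (log2 change 0.90, SE 0.21, adjusted p = 0.047). Cnn3 had 21.7, 27.6 and 29.1 FPKM with vehicle against 40.5, 46.5 and 38.3 FPKM with R (log2 change 0.66, SE 0.13, adjusted p = 0.031). For both calponins the groups were apart, with a wide spread for Cnn2, whose call ended whichever library was left out (adjusted p up to 0.14). Myh9, the heavy chain of non-muscle myosin IIA, had 102, 114 and 110.1 FPKM with vehicle against 132, 134 and 147 FPKM with R, also apart between groups, without passing (log2 change 0.34, SE 0.09, adjusted p = 0.070). The proteins that turn filaments over did not pass: the severing protein cofilin (Cfl1) at 677 ± 31.8 FPKM with vehicle against 663 ± 77.1 FPKM with R, profilin (Pfn1) at 528 ± 8.22 FPKM with vehicle against 493 ± 89.4 FPKM with R, and the elongation factors Vasp and Enah, with log2 changes of -0.04, -0.11, -0.23 and 0.38. Cfl1 and Pfn1 were the most abundant of the 45 genes, and their changes had 95% intervals of -0.32 to 0.25 and -0.45 to 0.22. Both have processed copies elsewhere in the genome that can share reads, so their values are uncertain.

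The tropomyosins, which coat the filament groove, did not move alike. Tpm1 rose, with 42.1, 50.7 and 55.4 FPKM with vehicle against 78.0, 91.3 and 69.2 FPKM with R (log2 change 0.67, SE 0.14, adjusted p = 0.036). Tpm2 had 48.6, 66.8 and 63.8 FPKM with vehicle against 91.8, 133 and 77.9 FPKM with R, and Tpm4 had 171, 188 and 200.5 FPKM with vehicle against 232, 267 and 226 FPKM with R. In both the R libraries were above vehicle, but neither passed (log2 change 0.72, SE 0.21, adjusted p = 0.090 for Tpm2; log2 change 0.37, SE 0.11, adjusted p = 0.090 for Tpm4). Tpm3 had 101, 92.7 and 95.7 FPKM with vehicle against 81.4, 84.9 and 75.4 FPKM with R, all R libraries below vehicle, and did not pass either (log2 change -0.26, SE 0.09, adjusted p = 0.12). As a share of the summed FPKM of the 4 genes, which is a level per length, Tpm4 was the largest at 47.5% ± 0.654 with vehicle and 48.2% ± 2.03 with R (SD, n = 3). Tpm3 made up 24.7% ± 2.76 with vehicle and 16.1% ± 1.196 with R. Tpm1 made up 12.6% ± 0.873 and 15.8% ± 0.354, and Tpm2 15.2% ± 1.69 and 19.8% ± 2.92. The shares of Tpm1, Tpm2 and Tpm3 did not overlap between the groups and those of Tpm4 did, as the plot of the tropomyosins shows; these shares were not tested. A share of a sum also falls when the other genes rise, so the shares depend on each other. The summed level was 363, 398 and 415 FPKM with vehicle and 483, 575 and 448 FPKM with R. Each gene makes many isoforms by alternative promoters and exons, which values per gene cannot separate, and their similar coding exons may share reads.

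**Figure D3:**
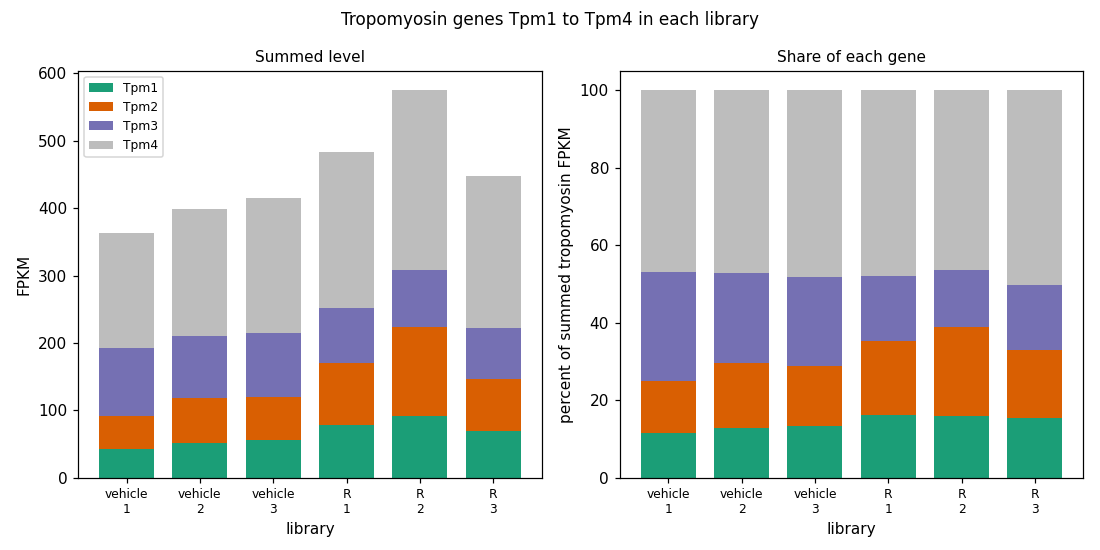
Stacked bars of Tpm1, Tpm2, Tpm3 and Tpm4 in each library, as FPKM (left) and as a percent of their sum (right). All summed R levels exceed all summed vehicle levels, and the Tpm3 share is 23% or more in vehicle and under 17% in R.

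LIM-domain proteins, zinc-finger adaptors of stress fibres and adhesions, held the largest change of the list. Pdlim1, a PDZ-LIM protein that binds alpha-actinin, had 2.94, 8.27 and 5.74 FPKM in vehicle replicates 1, 2 and 3, and 21.9, 19.0 and 12.2 FPKM in R replicates 1, 2 and 3. The lowest R library was above the highest vehicle library, although the values within each group were far apart (log2 change 1.54, SE 0.33, adjusted p = 0.040), and the call ended when any library was left out except the second of vehicle (adjusted p up to 0.12). Pdlim7 (enigma), which binds tropomyosin, had 8.84, 12.6 and 14.8 FPKM with vehicle against 21.9, 24.4 and 19.9 FPKM with R (log2 change 0.84, SE 0.18, adjusted p = 0.037). Fhl2, a LIM-only protein that moves between adhesions and the nucleus, had 12.4, 28.7 and 29.5 FPKM with vehicle against 54.1, 55.1 and 52.6 FPKM with R. The 3 R values lay close together above every vehicle value, and vehicle replicate 1 stood at less than the other vehicle libraries; the gene just missed the threshold (log2 change 1.26, SE 0.30, adjusted p = 0.052) and passed without vehicle replicate 1 (adjusted p = 0.0064) or 3 (adjusted p = 0.042). Zyxin (Zyx), which repairs strained stress fibres, had 28.6, 28.7 and 29.1 FPKM with vehicle against 36.9, 42.3 and 34.3 FPKM with R, apart between the groups, and did not pass (log2 change 0.38, SE 0.09, adjusted p = 0.061). Pdlim5 was also apart between groups without passing (log2 change 0.41), and Csrp1 (0.25) and Lpp (-0.17) overlapped. Lmo7 was too low to be tested, at 0.127 to 0.397 FPKM in vehicle and 0.316 to 2.07 FPKM in R, which is an estimated 26 to 448 reads. Dbn1 (55473429 to 55488111) and Pdlim7 (55495795 to 55513676) are neighbours on the minus strand of chromosome 13, 7684 bases apart, and both rose.

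Of the adaptors that connect integrins with actin, 3 of the 7 tested rose, beside 2.39% of all tested genes. Kindlin-2 (Fermt2), which activates integrins together with talin, had 9.20, 10.7 and 10.5 FPKM in vehicle replicates 1, 2 and 3, and 15.2, 17.0 and 15.5 FPKM in R replicates 1, 2 and 3. The spread within each group was small next to the gap between them (log2 change 0.60, SE 0.09, adjusted p = 0.013); the call ended without vehicle replicate 1 (adjusted p = 0.051). Alpha-parvin (Parva), an actin-binding partner of integrin-linked kinase, had 6.62, 8.79 and 8.18 FPKM with vehicle against 11.2, 14.6 and 13.8 FPKM with R (log2 change 0.68, SE 0.14, adjusted p = 0.032). Tensin 1 (Tns1), which marks elongated fibrillar adhesions, was low, at 1.41, 1.74 and 1.10 FPKM with vehicle against 4.81, 2.98 and 2.98 FPKM with R, and rose as well (log2 change 0.91, SE 0.18, adjusted p = 0.032). The R libraries were above vehicle for both, and the call of Tns1 ended whichever library was left out (adjusted p up to 0.10).

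The central adaptors of the same adhesions did not pass. Talin 1 (Tln1), which binds integrin tails, had 107, 106 and 103 FPKM with vehicle against 98.2, 103 and 116 FPKM with R, a log2 change of -0.00022 with a 95% interval of -0.21 to 0.21. Vinculin (Vcl), which reinforces talin under force, had 18.1, 21.2 and 15.1 FPKM with vehicle against 16.6, 17.6 and 24.4 FPKM with R, a log2 change of 0.09 with a 95% interval of -0.31 to 0.50. Both were chosen after their values were seen, the groups overlapped, and the intervals leave room for changes of some size in either direction. Lims1 (PINCH-1) and Tns3 had log2 changes of -0.13 and 0.20. Talin 1 lies beside Tpm2 on chromosome 4 (Tln1 at 43531519 to 43562691, Tpm2 at 43514711 to 43523765), 7754 bases apart on the minus strand, and the log2 change of Tpm2 was 0.72. Ilk, the gene of integrin-linked kinase, was listed at 0.555 to 0.583 FPKM in vehicle and 0.452 to 0.709 FPKM in R, only 26 to 35 estimated reads. Of its exon bases 89.7% overlap exons of other genes, mainly Taf10 on the opposite strand (76.7%), and with strandedness and counting rule not given in the sources used here its value is uncertain. Vcl shares 25.5% of its exon bases with Ap3m1, Cnn3 17.7% with Gm42928 and Cfl1 16.5% with Snx32, each on the opposite strand, and their reads cannot be told apart without strand. For the other listed genes that were tested the shared part was at most 8.15%, that of Actn1.

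Adhesion signalling was represented by the kinases Src and Ptk2 (FAK) and the scaffolds Bcar1 (p130Cas) and Pxn (paxillin). Src, which phosphorylates the others, had 9.46, 10.9 and 12.2 FPKM with vehicle against 18.2, 16.9 and 14.8 FPKM with R (log2 change 0.58, SE 0.12, adjusted p = 0.034). Bcar1, a scaffold that is phosphorylated when stretched, had 7.98, 9.71 and 13.3 FPKM with vehicle against 18.1, 20.4 and 16.4 FPKM with R (log2 change 0.79, SE 0.18, adjusted p = 0.044). Both rose with no overlap between the groups, and Bcar1 had its highest vehicle value in replicate 3. Ptk2 had 3.74, 3.44 and 4.25 FPKM with vehicle against 4.55, 4.60 and 4.36 FPKM with R, narrowly apart, and did not pass (log2 change 0.20, SE 0.10, adjusted p = 0.28). Pxn overlapped between groups, at 22.7 ± 2.10 FPKM with vehicle against 20.4 ± 1.86 FPKM with R, with a log2 change of -0.15 and a 95% interval of -0.39 to 0.10.

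Caveolae, the membrane pits that flatten when a cell is stretched, are built from caveolins and cavins. Caveolin 1 (Cav1, chromosome 6, 17306335 to 17341452), their main coat protein, had 11.4, 10.3 and 13.2 FPKM in vehicle replicates 1, 2 and 3, and 19.5, 21.1 and 20.6 FPKM in R replicates 1, 2 and 3. The groups were far apart for their spread, and the adjusted p was the smallest of the 43 (log2 change 0.76, SE 0.10, adjusted p = 0.0079). Cavin1, which the coat needs to form, had 60.4, 80.6 and 64.6 FPKM with vehicle against 90.5, 161 and 145 FPKM with R; the groups were apart with a wide spread in R, and it did not pass (log2 change 0.91, SE 0.22, adjusted p = 0.058), though it did without R replicate 1 (adjusted p = 0.015). Of 6 other tested caveola genes 0 passed, with 1 higher at an unadjusted p under 0.05 in limma (11.4% of all tested genes were), and the smallest p-values were those of Ehd2, at 48.4 ± 7.69 FPKM with vehicle against 79.6 ± 17.9 FPKM with R (log2 change 0.69, adjusted p = 0.079), and Cavin3 (log2 change 0.63, adjusted p = 0.22).

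The rest of the actin machinery was taken from lists chosen by function. The actins themselves did not pass: 0 of 5 tested were called, with 3 higher at an unadjusted p under 0.05 in limma (11.4% of all tested genes were). Their median log2 change was 0.99. Actb and Actg1 had log2 changes of 0.06 and 0.15, and Acta1, whose groups overlapped, had 1.81. Acta2, the smooth muscle actin of contractile stromal cells, had 127, 406 and 212 FPKM with vehicle against 596, 734 and 411 FPKM with R (log2 change 1.34, SE 0.41, adjusted p = 0.10), and Actg2 a log2 change of 0.99 (adjusted p = 0.13). Of 17 genes of the Arp2/3 complex and its activators, which build branched networks, 0 passed over all genes, with 2 higher and 5 lower at an unadjusted p under 0.05 in limma (11.4% and 12.6% of all tested genes) and a median of -0.17. The smallest p-values were those of Actr2 (log2 change -0.31, adjusted p = 0.083) and Was (log2 change -0.41, adjusted p = 0.092).

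Capping, severing and monomer-binding proteins had 2 rises and 1 fall among 17 tested, with a median of -0.03. Of all tested genes 2.39% were called higher and 4.43% lower. In this list 3 were higher and 3 lower at an unadjusted p under 0.05 in limma, beside 11.4% and 12.6% of all tested genes. Gelsolin (Gsn), which severs and caps filaments, rose, with 173, 179 and 181 FPKM with vehicle against 251, 263 and 234 FPKM with R (log2 change 0.49, adjusted p = 0.023), and so did Cfl2, another cofilin, with 9.42, 11.4 and 11.7 FPKM with vehicle against 17.0, 19.7 and 15.4 FPKM with R (log2 change 0.63, adjusted p = 0.029). Capg, a capping protein abundant in macrophages, fell, with 322, 282 and 297 FPKM with vehicle against 231, 227 and 202 FPKM with R (log2 change -0.45, adjusted p = 0.045). With each library left out in turn, Gsn was called in 3 and Cfl2 in 2 of the 6 fits, and Capg in 0 (adjusted p 0.079 to 0.18). Of 26 further adhesion adaptors and kinases 1 rose, Lims2 (PINCH-2; log2 change 0.97, adjusted p = 0.044), and 1 fell, the Ena/VASP protein Evl (log2 change -0.77, adjusted p = 0.033), with a median of 0.12. Lims2 had 2.97, 3.01 and 3.12 FPKM with vehicle against 8.69, 8.31 and 4.43 FPKM with R, and Evl had 46.3, 37.1 and 30.2 FPKM with vehicle against 21.6, 23.4 and 19.6 FPKM with R. The groups were apart for both, and each was called in 1 of the 6 fits with a library left out. Of the 26, 10 were higher and 4 lower at an unadjusted p under 0.05 in limma, beside 11.4% and 12.6% of all tested genes. Among 15 actin and adhesion regulators enriched in leukocytes 0 rose and 3 fell, and all 15 changes were negative, with a median of -0.34. The 3 were Aif1, at 53.7, 40.9 and 24.7 FPKM with vehicle against 12.9, 15.6 and 9.07 FPKM with R (log2 change -1.55, adjusted p = 0.026), Pstpip1, at 20.2, 17.7 and 16.9 FPKM with vehicle against 11.6, 11.3 and 10.3 FPKM with R (log2 change -0.67, adjusted p = 0.0098) and Rac2, at 105, 91.3 and 88.3 FPKM with vehicle against 64.3, 62.2 and 59.2 FPKM with R (log2 change -0.60, adjusted p = 0.013). Pstpip1 and Rac2 were called in each of the 6 fits with a library left out, and Aif1 in 1. At an unadjusted p under 0.05 in limma 9 of the 15 were lower and 0 higher, beside 12.6% and 11.4% of all tested genes. The macrophage markers had 17 of 18 changes in the same direction, and their part in this was not tested. Was and some others of these 15 also stand in other lists. Of SRF and its 2 tested coactivators 0 passed, with log2 changes of 0.19 for Srf, 0.16 for Mrtfa and -0.05 for Mrtfb, and 0 had an unadjusted p under 0.05 in limma. The plot of log2 changes by list sets these beside the 43 tested genes.

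**Figure D4:**
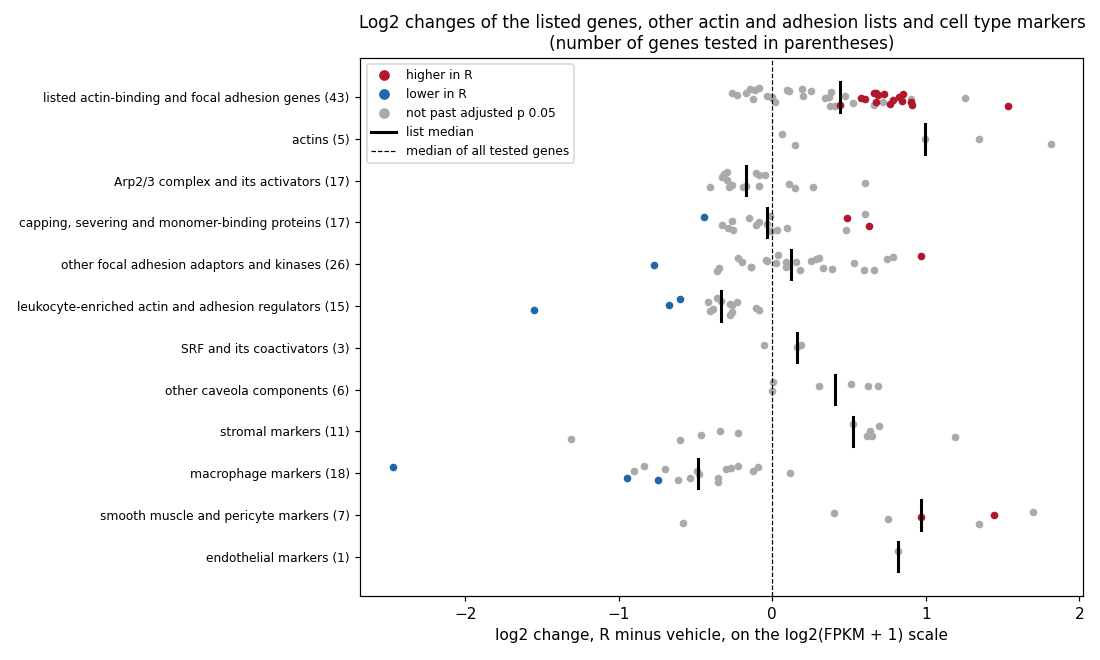
Log2 change of each tested gene, 1 point per gene, in the list of 43, other actin and adhesion lists and the cell type marker lists; black bars are list medians and the dashed line is the median of all 11862 tested genes. The list of 43 has its median at 0.44, the leukocyte-enriched regulators at -0.34 and the macrophage markers at -0.48.

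The estimated depth was 17070000 to 21750000 reads a library, and the least covered of the 16 genes that rose, Pdlim1, had an estimated 264 to 2504 reads. The share of the listed genes called higher was above that of all tested genes as reported and in each of the 14 alternatives, as the plot of shares by fit shows. All of these fits used the same 6 libraries, and the listed genes were chosen with earlier results of these data known. The alternatives are therefore no independent support. Beside the fits with a library left out, 3 listed genes were higher without a filter (0.254% of all genes tested there), 17 of 40 with the stricter filter (3.44%), 16 and 17 with pseudocounts of 0.1 and 5 (2.23% and 2.44%), 17 with quantile normalization (2.92%), 17 with equal medians (2.8%), 14 without a trend in the prior variance (2.19%) and 13 with a replicate block (2.52%). In all of them 0 listed genes were lower, while 1.09% to 6.01% of all tested genes were.

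**Figure D5:**
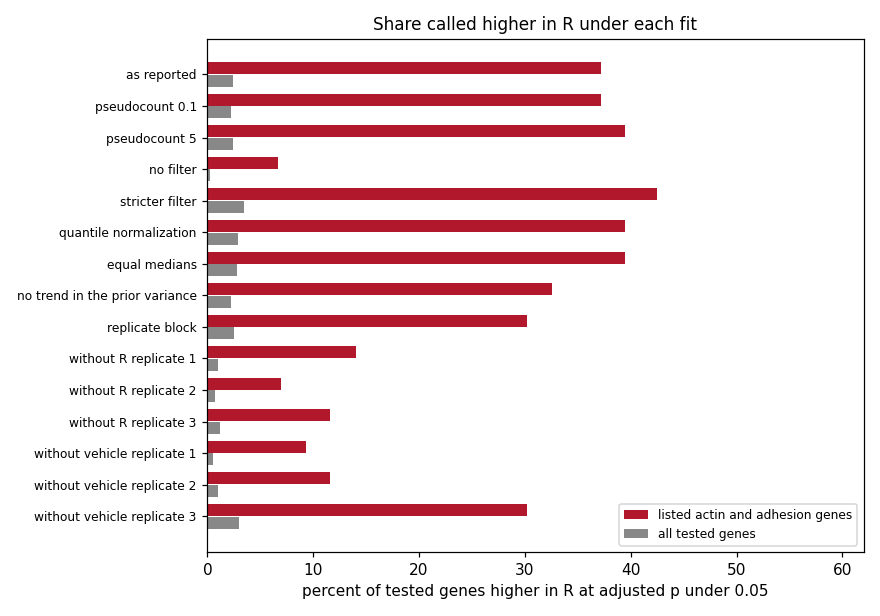
Percent of tested genes called higher in R at an adjusted p under 0.05 in each fit, for the listed genes (red) and all tested genes (grey), as bars from 0. The red bars run from 6.67% without a filter to 42.5% with the stricter filter, and the grey bars from 0.254% to 3.44%.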

How the data were processed

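RNA was sequenced in 3 R and 3 vehicle libraries, and groups and replicate numbers came from the sample titles. The authors deposited 1 table of FPKM for 49328 genes, whose last line was cut short; per the submitters' processing notes the build was GRCm38 and edgeR 3.18.1 was used, while the aligner, counter and annotation were not given in the sources used here. Symbols, exon lengths and coordinates came from GENCODE M21 (49302 identifiers matched, 26 did not) and promoters from RefSeq. Depth was estimated from low values, which are whole multiples of 1 read within 0.02 reads for over 98% of them; such estimates cover counting error only. limma 3.58.1 (R 4.3.3) was fitted to log2(FPKM + 1) of all genes kept. The fit had a trend in the prior variance, equal weights and Benjamini-Hochberg adjustment over 11862 genes. It was also run on simulated reads with the same spread beyond counting error set for every gene. The genes of these libraries differ in spread, so that run does not check the calls reported here. The genes and lists were chosen with earlier results of these data known. Counts are read beside those of all genes, which does not undo that choice. Values by library are given for every gene past the threshold in the lists reported here, except the marker lists. They are also given for up to 3 genes of each role by p-value. Each other list is named by up to 3 genes past the threshold or, if none, 2 by p-value. Other genes were chosen after their values were seen. One of the other gene lists is not reported here. Alternatives were 2 pseudocounts, 2 filters, 2 scalings, no trend, a replicate block and leaving out each library.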

Additional observations from a re-analysis of the deposited data

How the results depend on the processing

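Without a filter on low values, where 25575 genes were tested, 344 genes passed in place of 809, and 3 of the listed genes were higher (Actn1, Fermt2 and Cav1) in place of 16. With 1 library left out, 337 to 879 genes passed, 3 to 13 of the listed genes were higher and 0 were lower. The other settings, both pseudocounts, the stricter filter, both scalings and the fit with no trend in the prior variance, gave 14 to 17 higher and 0 lower. None of the 16 changes turned sign in any alternative in which the gene was tested (all 14, except that Tns1 was too low for the stricter filter); Actn1 and Cav1 were called in all 14. Changes near 0 did turn: the values with 1 library left out were -0.0144 to 0.0266 for Lasp1, -0.0265 to 0.10 for Msn, -0.12 to 0.049 for Cfl1, -0.25 to 0.0105 for Pfn1, -0.0679 to 0.0495 for Tln1 and -0.0687 to 0.21 for Vcl. That of Lasp1 was -0.0028 with quantile normalization and that of Tln1 0.032 with equal medians. The cause of these shifts was not tested.

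Replicate numbers were shared by the groups, but nothing in the labels says that they mark a pair. Deviations from the group means correlated at 0.14, -0.01 and -0.03 for numbers 1, 2 and 3, and replicates 2 and 3 of R correlated more with another number, so the numbers were not taken as pairs. With the replicate block 756 genes passed and 13 of the listed genes were higher; Actn4, Tpm1, Pdlim1, Src and Bcar1 lost their calls and Fhl2 and Cavin1 gained one. Ilk and Lmo7 were below the level for the reported test, at an estimated 26 to 35 and 26 to 448 reads. The value of Ilk is also uncertain because most of its exon bases overlap exons of other genes.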
